A study of Homo sapiens with 2 samples.

Results

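The urea cycle and glutamine metabolism genes described here are 9 in number, CPS1, OTC, ASS1, ASL, ARG1, ARG2, SLC25A13, SLC25A15 and GLUD1. They were taken by name from the 26225 genes named in both transcript tables, without use of their values, and all 9 were found. The RNA came from PLC, an established line of human liver cancer cells, which carried either the empty vector (EV, genotype WT in the labels) or the vector for PRSS35 over-expression. PRSS35 is a serine protease family member. Both lines were made by lentiviral transduction and puromycin selection, so the EV cells share the vector and the selection. The labels list no treatment for either library and give a glucose-rich DMEM with glutamine and pyruvate as the medium of PLC cells, without saying how the cells of each library were grown. Whether each line was a clone or a pool was not given in the sources used here. There was 1 library per condition. No difference below has a replicate check or a p-value, and variation between cultures was not measured.

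In the urea cycle, ammonia and bicarbonate enter as carbamoyl phosphate inside the mitochondrion, citrulline leaves to the cytosol, and arginine is made and split there into urea and ornithine. The complete cycle is a property of hepatocytes, while many other cells keep only the steps from citrulline to arginine. Glutamine and glutamate feed the cycle, since their nitrogen reaches it as ammonia and as the amino group of aspartate.

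Levels are given as FPKM, the fragments of a transcript divided by its length and by how many fragments were mapped in all, together with the bounds that Cufflinks placed around each value. These bounds cover error within a library only. A change is the log2 of the ratio of PRSS35 to EV after 1 FPKM was added to each value, a scale that understates the change of low genes. Genes with a mean of at least 1 FPKM over both libraries, numbering 11115, are referred to as expressed, and the median log2 change over them was 0.06. PRSS35 itself had 0.643 FPKM (bounds 0.445 to 0.841) in the EV library and 1836 FPKM (bounds 1759 to 1912) in the PRSS35 library, the direction that the labels give. The worth of 1 fragment in FPKM had a median ratio of 0.999 between the libraries over 621 loci, so the depths behind the values were alike, while total counts are not in the tables. In bulk RNA, fewer cells expressing a gene and less RNA of it per cell cannot be told apart. Of 11 hepatocyte markers 10 were expressed, with SERPINA1 highest and albumin (ALB) at only 4.05 FPKM in EV and 5.21 FPKM in PRSS35. Their median log2 change was 0.11. By bounds that did not overlap, 5 were higher and 1 was lower in PRSS35, against 25.1% and 15.5% of all expressed genes. The summed level of the hepatocyte markers was 3497 FPKM in EV and 5255 FPKM in PRSS35. Nearly all of that difference came from SERPINA1, at 2528 FPKM in EV and 4239 FPKM in PRSS35. Of 12 markers of other liver cells 4 were expressed, with a summed level of 308.8 FPKM in EV and 292.0 FPKM in PRSS35, nearly all of it from the locus that CD68 shares with MPDU1. The markers PTPRC, MARCO and STAB2 were listed at 0 in both.

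The 9 genes spanned a very wide range of levels in PLC cells. The cytosolic steps that make arginine were the most abundant, the entry step was low, and OTC and ARG1, of the citrulline-forming and the urea-forming step, were near 0. ASS1, which joins citrulline to aspartate, stood at 1378 FPKM (bounds 1320 to 1435) in EV and 1731 FPKM (bounds 1658 to 1803) in PRSS35, ranking 118 and 89 among all named genes. ASL, which releases arginine and fumarate from the product of ASS1, stood at 143.0 FPKM (bounds 138.0 to 147.9) in EV and 116.4 FPKM (bounds 112.2 to 120.5) in PRSS35. CPS1, the rate-setting mitochondrial enzyme that makes carbamoyl phosphate, had 4.18 FPKM (bounds 3.82 to 4.54) in EV and 5.33 FPKM (bounds 4.91 to 5.75) in PRSS35. ASS1 was thus 329.8 times as abundant as CPS1 per transcript length in EV and 324.5 times in PRSS35. The summed level of the 9 genes was 1611 FPKM in EV and 1955 FPKM in PRSS35, and ASS1 held 85.5% and 88.5% of it.

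**Figure D1:**
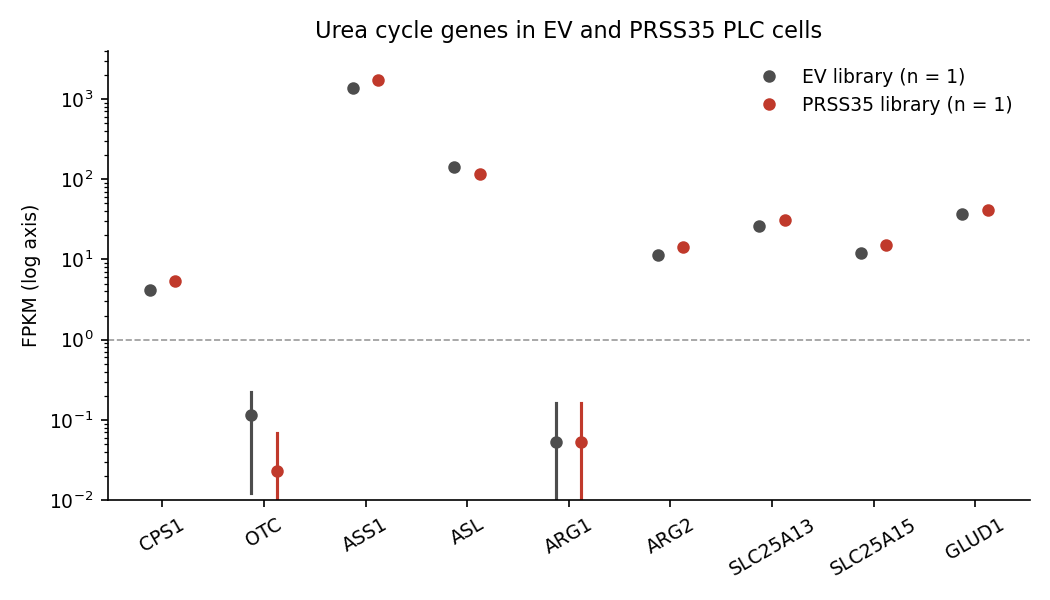
FPKM of each of the 9 genes on a log axis in the EV and the PRSS35 library, 1 library each, with vertical lines for the Cufflinks bounds, cut off where they reach below the axis, and a dashed line at 1 FPKM. ASS1, at 1378 FPKM and 1731 FPKM, lies highest and OTC and ARG1 lie below 1 FPKM in both.

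The carriers and GLUD1 lay between these extremes. GLUD1, which turns glutamate into 2-oxoglutarate and ammonia in the mitochondrion, had 36.5 FPKM (bounds 35.3 to 37.7) in EV and 41.6 FPKM (bounds 40.3 to 42.9) in PRSS35. SLC25A13 (citrin), the mitochondrial carrier that brings out the aspartate used by ASS1, had 25.9 FPKM (bounds 24.4 to 27.5) and 31.2 FPKM (bounds 29.4 to 32.9). SLC25A15, the carrier that exchanges ornithine for citrulline, had 11.9 FPKM (bounds 10.9 to 13.0) and 15.0 FPKM (bounds 13.8 to 16.1). For these 3 genes the PRSS35 value lay above the upper EV bound. ARG2, the mitochondrial arginase found in many tissues outside the liver, had 11.5 FPKM (bounds 10.5 to 12.6) in EV and 14.3 FPKM (bounds 13.1 to 15.5) in PRSS35. From the top, the order ASS1, ASL, GLUD1, SLC25A13, SLC25A15, ARG2, CPS1 was the same in both libraries. Within each library, neighbours in this order had separate bounds except SLC25A15 and ARG2, and OTC and ARG1 at the bottom.

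OTC and ARG1 rested on a handful of fragments. OTC, which joins carbamoyl phosphate to ornithine to form citrulline, had 0.116 FPKM in EV and 0.0232 FPKM in PRSS35, where the bounds correspond to 5 fragments and 1 fragment. The ratio of these counts, 0.2, had an exact 95% interval of 0.00423 to 1.79, so no difference in OTC was detectable at this depth. ARG1, the cytosolic liver arginase that ends the cycle, had 0.0532 FPKM in each library, 1 fragment in each, with an exact interval for the ratio of 0.0127 to 78.5. At the arginase step the mitochondrial form therefore outweighed the liver form, ARG2 standing at 216.8 times the ARG1 level in EV and 269.4 times in PRSS35, both over a denominator of 1 fragment. These intervals cover counting error only.

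Promoter sequences of the members are shown because OTC and ARG1, near 0 in level, and the expressed ASS1 and ARG2 differed in base composition there, a trait that the choice of genes did not use. The windows are the 250 bases before the annotated start from RefSeq on GRCh38.p14, written 5′ to 3′ on the strand of the gene. Capitals mark matches on either strand to TATAAA (the TATA box), GGGCGG (the GC box), CCAAT (the CAAT box), CACGTG (an E-box), GACGTCA (most of a cAMP response element) and CAAAGTC (part of a motif of HNF4A), some of which overlap. The windows below are OTC at chrX:38352354-38352603 (+), ARG1 at chr6:131572976-131573225 (+), ASS1 at chr9:130444457-130444706 (+) and ARG2 at chr14:67619670-67619919 (+).
OTC: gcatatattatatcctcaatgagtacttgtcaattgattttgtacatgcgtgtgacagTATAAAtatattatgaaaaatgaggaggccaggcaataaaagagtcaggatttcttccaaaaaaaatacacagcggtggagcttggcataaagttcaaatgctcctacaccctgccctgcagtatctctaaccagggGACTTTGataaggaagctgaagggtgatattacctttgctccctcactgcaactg
ARG1: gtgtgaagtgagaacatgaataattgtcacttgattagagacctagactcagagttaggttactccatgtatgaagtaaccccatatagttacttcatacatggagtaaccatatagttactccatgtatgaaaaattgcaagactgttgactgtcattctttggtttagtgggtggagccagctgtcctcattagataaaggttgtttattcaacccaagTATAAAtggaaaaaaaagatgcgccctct
ASS1: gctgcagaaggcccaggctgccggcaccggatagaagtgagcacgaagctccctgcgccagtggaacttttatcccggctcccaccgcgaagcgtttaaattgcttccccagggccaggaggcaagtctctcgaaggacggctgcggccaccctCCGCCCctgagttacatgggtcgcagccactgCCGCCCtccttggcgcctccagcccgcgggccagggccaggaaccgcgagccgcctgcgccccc
ARG2: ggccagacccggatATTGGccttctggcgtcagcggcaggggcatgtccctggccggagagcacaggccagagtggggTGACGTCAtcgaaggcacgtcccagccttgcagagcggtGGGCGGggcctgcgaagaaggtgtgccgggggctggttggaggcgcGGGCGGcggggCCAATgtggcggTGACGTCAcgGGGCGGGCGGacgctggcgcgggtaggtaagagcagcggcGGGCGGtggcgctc

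The window of OTC had 40.4% GC and that of ARG1 37.6%, and each held TATAAA, which is in 10.7% of the 35116 promoter windows in the table. The match lay near the start in ARG1 but far from it, in the early part of the window, in OTC. Position was not part of the search. OTC also held CAAAGTC, which is in 2.91% of windows. CPS1 has windows for 3 starts, with 48.4%, 40% and 33.6% GC. The other 6 members, all of them above CPS1 in level, had GC between 68.4% and 80.4%, against a median of 58% over all windows, of which 46.0% reach 60% GC and 31.9% lie under 50%. Each of the 6 held GGGCGG, which is in 42.6% of windows, and ARG2 alone among the members held GACGTCA, which is in 3.12%. CCAAT, in 32.0% of windows, was in those of ASL, ARG2, SLC25A13 and 1 start of CPS1, and CACGTG, in 6.34%, was in those of SLC25A13, 1 start of CPS1 and 1 of ASS1. GGGCGG holds only G and C, and TATAAA only A and T. Their shares among windows of like GC were not measured. These matches were described with the sequences in view, and a match does not show binding.

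Between the libraries the members differed little. Of the 7 expressed members, 0 were higher or lower by 2-fold in PRSS35, when 2.73% of all expressed genes were higher and 2.48% were lower. At 1.5-fold the count was again 0, against 5.23% higher and 4.27% lower over all expressed genes. The Cufflinks bounds of the libraries were apart for all 7, with 6 higher and 1 lower in PRSS35, where 25.1% of all expressed genes were higher and 15.5% lower by this rule. The median log2 change of the 7 was 0.29, with a range from −0.29 to 0.33, beside the 0.06 over all expressed genes. Over all genes the central changes ran from −0.11 at percentile 25 to 0.22 at percentile 75, and from −0.31 at percentile 10 to 0.40 at percentile 90.

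**Figure D2:**
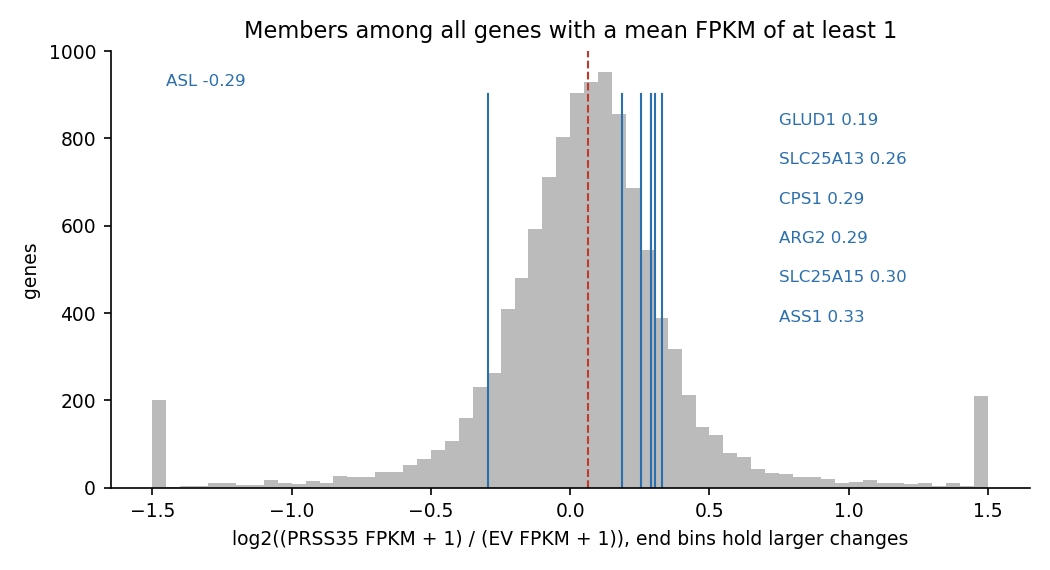
Histogram of the log2 change (PRSS35 over EV, 1 FPKM added) of the 11115 expressed genes, the end bins holding all larger changes, with a dashed line at their median and marks for the 7 expressed members. Of the members, 6 lie to the right of the median of 0.06 and ASL lies to its left.

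The 6 members with a higher value were alike in size. ASS1 had a ratio of 1.26 (95% interval from the bounds 1.19 to 1.33) and a log2 change of 0.33, with 85.9% of expressed genes changed less or downward. CPS1 had a ratio of 1.28 (interval 1.14 to 1.43), SLC25A15 1.25 (interval 1.12 to 1.41), ARG2 1.24 (interval 1.10 to 1.40), SLC25A13 1.20 (interval 1.11 to 1.30) and GLUD1 1.14 (interval 1.09 to 1.19). These genes cover the entry step, both carriers, the aspartate-using step and the mitochondrial arginase, and all but GLUD1 lie in the same narrow range of ratios. ASL was the exception, with a ratio of 0.814 (interval 0.775 to 0.855) and a log2 change of −0.29, and 10.7% of expressed genes had a lower change. The listed transcript levels of these consecutive steps therefore moved apart. ASS1 stood at 9.64 times the level of ASL in EV and at 14.9 times in PRSS35, a ratio that no scaling of a whole library can alter. Both loci were assembled from the reads of each library, and what part a difference in transcript models had in this shift was not tested. By contrast SLC25A13 stood at 2.17 times SLC25A15 in EV and 2.08 times in PRSS35.

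**Figure D3:**
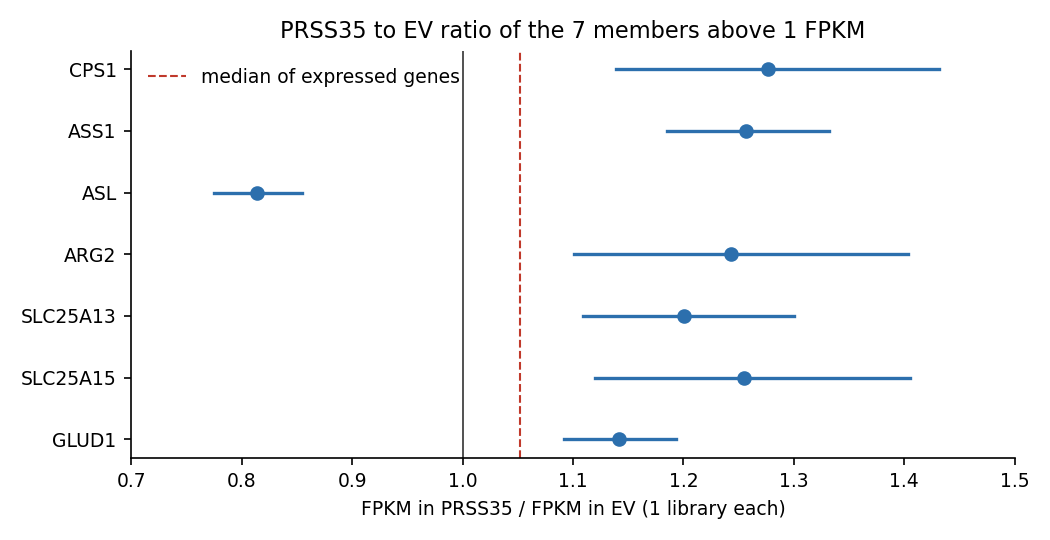
Ratio of PRSS35 to EV in FPKM for the 7 expressed members, with lines for the 95% intervals from the Cufflinks bounds, which cover error within a library only. The intervals of 6 members lie above 1 and that of ASL lies below 1.

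Some of these values could include fragments of other genes, and whether the counting used strand was not given in the sources used here. Coordinates are those of the GENCODE gene. ARG2 (chromosome 14 of GRCh37, the assembly of hg19, from 68086637 to 68118425, plus strand, 8 exons) shares 904 exon bases, 47.3% of its transcript, with VTI1B on the opposite strand. VTI1B stood at 28.0 FPKM (bounds 25.8 to 30.2) in EV and 24.0 FPKM (bounds 22.1 to 26.0) in PRSS35, and these bounds overlapped. ASL (chromosome 7 from 65540787 to 65559684, plus strand, 17 exons) shares 563 exon bases, 26.3%, with a protein-coding gene on its own strand. ASS1 (chromosome 9 from 133320348 to 133376661, plus strand, 15 exons) has 11.9% of its stretches of 50 bases in 13 other genes, mostly ASS1 pseudogenes. The locus of SLC25A15 (chromosome 13 from 41363548 to 41386596, plus strand, 7 exons) was joined with the microRNA gene MIR621 in both tables, and 8.59% of its stretches of 50 bases are in 388 other genes. What part such fragments had in any value was not tested. CPS1, SLC25A13, OTC and ARG1 shared no stretch of 50 bases with another gene. They lie on chromosome 2 from 211342406 to 211543831 (plus strand, 38 exons), chromosome 7 from 95749532 to 95951459 (minus strand, 18 exons), chromosome X from 38211839 to 38280699 (plus strand, 10 exons) and chromosome 6 from 131791972 to 131905472 (plus strand, 8 exons). For ARG1 the locus in both tables was shorter than the GENCODE gene, from 131894344 to 131905472.

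GLUD1 (chromosome 10 from 88809959 to 88854600, minus strand, 13 exons) has a near copy in GLUD2, an intronless gene on the X chromosome from 120181464 to 120183948. Their coding sequences are both 1674 bases long and differ at 40 of them, an identity of 97.6%, with an identical run of 302 bases. The stretch from coding base 136 to 225, in which capitals mark the bases that differ, shows how little separates a fragment of one gene from the other.
GLUD1: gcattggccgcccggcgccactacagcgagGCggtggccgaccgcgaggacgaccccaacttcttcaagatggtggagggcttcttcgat
GLUD2: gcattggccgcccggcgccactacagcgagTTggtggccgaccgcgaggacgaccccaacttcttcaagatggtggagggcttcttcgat

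GLUD2 was listed at 9.70 FPKM in EV and 11.8 FPKM in PRSS35, a log2 change of 0.26 beside 0.19 for GLUD1. How Cufflinks split fragments between the pair was not tested. Their summed level was 46.1 FPKM in EV and 53.4 FPKM in PRSS35, a ratio of 1.16. This sum cannot show the direction of GLUD1 alone. It also depends on the split, because the transcripts differ in length, with 3300 bases for GLUD1 and 2485 for GLUD2. GLUD1 also shares 464 exon bases, 14.1%, with SHLD2 on the opposite strand.

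Cufflinks assembled transcripts from the reads in each library separately, and a locus assembled in only 1 library can change its transcript models between the tables. No member was assembled in 1 library only. The models of a locus assembled in both can also differ, and those models were not compared. CPS1, ARG2 and GLUD1 kept their annotated loci in both libraries, and ASS1, ASL, SLC25A13 and SLC25A15 were assembled in both. Among expressed genes above 0 in both libraries, 0.634% of those annotated in both changed by 2-fold, against 3.63% of those assembled in both, 5.34% of those assembled in EV alone and 5.56% of those assembled in PRSS35 alone. The members whose transcript models came from the annotation, CPS1, ARG2 and GLUD1, were all higher in PRSS35. The 1 lower member, ASL, was assembled in both.

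The choice of scaling moved the members together. As deposited, ASL was lower in PRSS35. When each library was instead scaled to the same total FPKM, unnamed loci included, the log2 change of ASL became 0.41, that of ASS1 1.04 and the median of the members 0.94, while the median of all expressed genes rose to 0.68. Relative to that median ASL stayed low. Over all genes this scaling gave 1258 higher and 178 lower at 2-fold, against 303 and 276 as deposited. Dividing by the sum over named loci, scaling by the upper quartile or centring on the median gene left the log2 changes of the 6 members above 0 and that of ASL below 0. By bounds, 5 of the 6 were still higher after scaling by the upper quartile, where those of ARG2 overlapped. In that setting 18.3% of all expressed genes were higher and 20.9% lower by bounds.

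**Figure D4:**
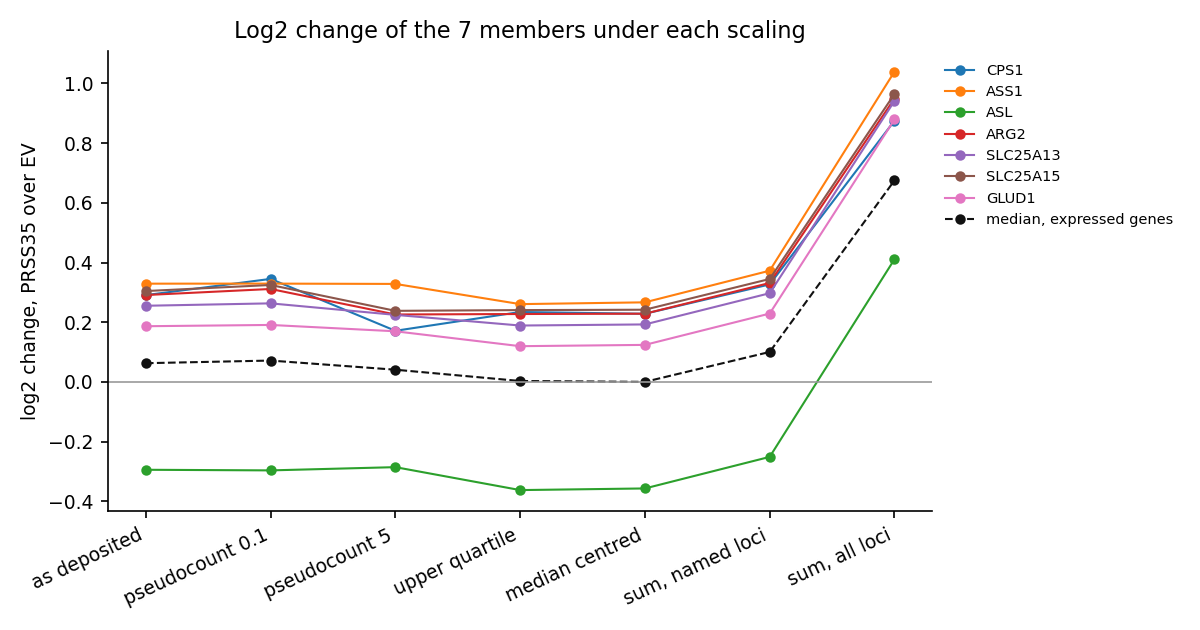
Log2 change (PRSS35 over EV) of the 7 expressed members under each scaling and pseudocount tried, with a dashed line for the median of expressed genes and lines that only join the settings of a gene. ASL is below 0 in all the settings drawn but the scaling to the total of every locus, where it is 0.41 and the median of expressed genes is 0.68.

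The genes around the members were read from 5 lists of 60 genes in all, of which 50 were expressed. Of these, 1 was higher and 0 were lower by 2-fold, against 2.73% and 2.48% of all expressed genes. Bounds were apart for 23 higher and 6 lower, against 25.1% and 15.5% of all expressed genes. The same shares stand beside the counts of each list below. The median log2 change of the 50 was 0.13. The single 2-fold gene was SLC25A22, a mitochondrial glutamate carrier, which had 21.2 FPKM in PRSS35, where its locus was assembled, and was listed at 0 in EV. It was 1 of 215 expressed genes listed at 0 in 1 library, 155 of which had at least 5 FPKM in the other, so no fold is given.

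In the list of direct support for the cycle, 4 of 9 genes were expressed and the median log2 change was 0.28. NAGS, which makes the activator that CPS1 needs, had 2.40 FPKM in EV and 1.83 FPKM in PRSS35, and these bounds overlapped. SLC25A12, the sister carrier of SLC25A13, had 1.85 FPKM in EV and 2.51 FPKM in PRSS35, with a locus assembled in PRSS35 alone.

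Among enzymes of glutamine, glutamate and proline, 15 of 17 were expressed, with 0 at 2-fold, 8 higher and 2 lower by bounds, and a median of 0.17. GLUL, which makes glutamine from glutamate and ammonia, had 24.1 FPKM in EV and 27.7 FPKM in PRSS35, close in ratio to GLUD1. Higher values were also listed for ALDH18A1, the entry enzyme of proline synthesis, with 46.5 FPKM in EV and 68.9 FPKM in PRSS35, and for PYCR3, which closes that pathway, with 52.6 FPKM and 73.2 FPKM. PYCR1, the most abundant gene of the list, had 522.5 FPKM in EV and 500.7 FPKM in PRSS35, with overlapping bounds. GOT1, the cytosolic aspartate aminotransferase, had 59.2 FPKM in EV and 77.5 FPKM in PRSS35, and OAT, which links ornithine to glutamate, had 50.8 FPKM and 57.2 FPKM, each with a locus assembled in 1 library only.

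All 10 enzymes that transfer the amide nitrogen of glutamine were expressed, with 0 at 2-fold, 3 higher by bounds, 7 overlapping and a median of 0.08. The 3 were ASNS, asparagine synthetase, with 71.9 FPKM in EV and 99.3 FPKM in PRSS35, CTPS2 of CTP synthesis, with 7.63 FPKM and 9.99 FPKM, and GFPT1 of hexosamine synthesis, with 3.33 FPKM and 4.08 FPKM. CAD, which holds the cytosolic carbamoyl phosphate synthetase of pyrimidine synthesis, was the most abundant, with 364.9 FPKM in EV and 359.2 FPKM in PRSS35 at a locus joined with ATRAID. In these cells the CAD locus thus stood far above CPS1, its mitochondrial counterpart in the urea cycle.

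Among enzymes that use arginine and ornithine, 14 of 16 were expressed, with 0 at 2-fold, 4 higher and 3 lower by bounds, and a median of 0.07. SRM, spermidine synthase, had 1061 FPKM in EV and 748.8 FPKM in PRSS35, a log2 change of −0.50. GAMT, which completes creatine, had 325.7 FPKM in EV and 240.8 FPKM in PRSS35, and GATM, which begins creatine synthesis from arginine, had 7.63 FPKM and 10.6 FPKM. The consecutive enzymes GATM and GAMT thus lay on opposite sides, as ASS1 and ASL did. SMS, spermine synthase, had 49.0 FPKM in EV and 65.0 FPKM in PRSS35, where alone it was assembled. ODC1, which commits ornithine to polyamines, had 259.7 FPKM in EV and 239.9 FPKM in PRSS35, and its inhibitor OAZ1, the most abundant of the list, had 1672 FPKM and 1782 FPKM, both with overlapping bounds.

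Of 8 liver transcription factors and cofactors, 7 were expressed, with 0 at 2-fold, 5 higher and 1 lower by bounds, and a median of 0.20. HNF4A, a nuclear receptor of hepatocyte identity, had 41.2 FPKM (bounds 39.6 to 42.8) in EV and 47.7 FPKM (bounds 45.9 to 49.6) in PRSS35. NR3C1, the glucocorticoid receptor, had 2.13 FPKM and 2.68 FPKM, FOXA2 54.9 FPKM and 63.3 FPKM, and CEBPA, the most abundant of the list, 95.7 FPKM and 107.3 FPKM. OTC and ARG1 were thus near 0 in cells that expressed these factors.

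**Figure D5:**
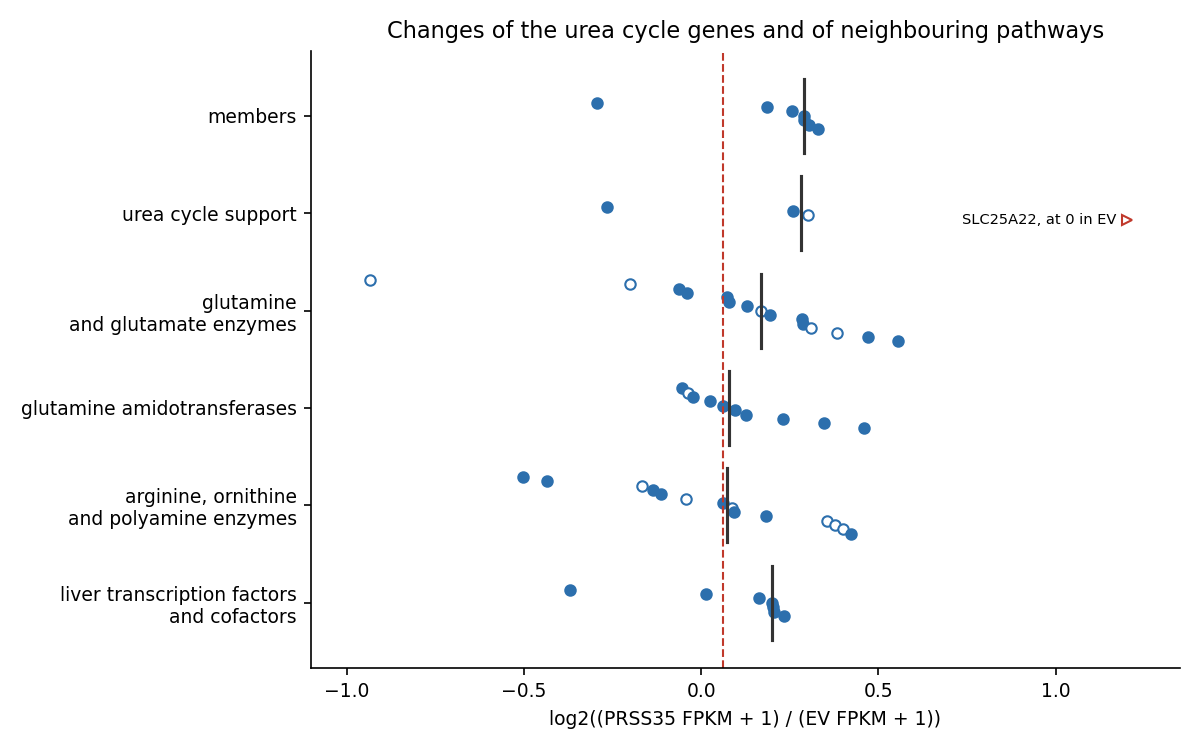
Log2 change (PRSS35 over EV) of each expressed gene in the members and the 5 pathway lists, with open circles for genes assembled in 1 library only, black bars for list medians, a dashed line at the median of 0.06 over all expressed genes and an arrow for SLC25A22, which is listed at 0 in EV. List medians lie between 0.07 and 0.29, and all genes but SLC25A22 lie within 2-fold.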

How the data were processed

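RNA of 1 EV and 1 PRSS35 library of PLC cells was sequenced on an Illumina instrument. The authors aligned reads with TopHat2 (2.1.0) to hg19 and deposited 1 Cufflinks table per library, with the FPKM of each locus and its bounds. The submitters' processing notes name Cuffdiff 2.2.1. The annotation release, the options and the use of strand are not given in the sources used here. No counts are in the tables, so no count model was fitted.

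The tables held 30971 loci in EV and 30543 in PRSS35. In each, 1 locus with a failed estimate was left out. FPKM was summed over loci of the same name, and a locus with comma-joined names counted for each gene named. With 1 library per group no test was made. Genes with a mean of at least 1 FPKM were compared on log2(FPKM + 1), called at 2-fold, and also compared by whether the bounds overlapped. Bounds were read as 2 SD, which gave the 95% intervals of ratios and the fragments implied at a locus as the square of FPKM over its SD. Fragments were called whole within 0.01 for depth, among loci under 200 fragments. The implied fragments of ARG1, 0.983, were rounded. Exact intervals for OTC and ARG1 took the total of both libraries as fixed.

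The members and lists were chosen with earlier results of these data known. Named were the members, PRSS35, and from each list the genes called at 2-fold, up to 4 with separate bounds and the largest change, the most abundant gene, and NAGS, GLUL, OAT, ODC1 and ASNS. Some genes that this rule names are not reported here. VTI1B was named after its values were seen. Exons, coding sequences and shared stretches came from GENCODE v44lift37 on GRCh37, and promoters from RefSeq on GRCh38.p14. Alternatives were other pseudocounts, scalings, filters, thresholds and treatments of loci. The calculations were tested on simulated data. The tools were Python 3.11.15 with pandas 2.3.3, numpy 2.4.6, matplotlib 3.10.9 and scipy 1.17.1.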

Additional observations from a re-analysis of the deposited data

How the results depend on the processing

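No paired analysis was possible because EV and PRSS35 have 1 library each, and no replicate could be left out. Of the values that answer a comparison, 144 stayed and 28 moved under the alternatives. With each library scaled to the same total FPKM over every locus, 1 member was called at 2-fold (ASS1), the members' median was 0.94, ASL was 0.41 and 0 members were lower by bounds. In that setting 87.0% of all genes were higher and 2.41% lower by bounds, 1258 genes were higher and 178 lower by 2-fold, and the calls were 3 for glutamine and glutamate enzymes, 1 for amidotransferases and 4 for arginine, ornithine and polyamine enzymes. The list medians were then 0.85 for urea cycle support, 0.87 for glutamine enzymes, 0.72 for amidotransferases, 0.74 for arginine enzymes and 0.87 for transcription factors.

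A pseudocount of 0.1 FPKM called 1 glutamine enzyme, and one of 5 FPKM called 192 genes higher and 162 lower. Leaving out joined loci gave 183 genes higher. The 1.5-fold threshold gave 581 higher, 475 lower and 1 glutamine enzyme. A mean of at least 5 FPKM gave 169 genes lower and a median of 2.37 for the support list, of which 2 genes remained. Among genes annotated in both libraries and above 0 in both, 7 were higher and 8 lower. The 3 remaining members were 3 higher and 0 lower by bounds, against 23.3% and 6.55% of all expressed genes in that setting. The medians of the arginine and transcription factor lists, each then 1 gene, were 0.42 and 0.015. The cause of these differences was not tested. Depth limits OTC and ARG1, where 1 to 5 fragments were seen.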
